A study of Mus musculus with 8 samples.

Results

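The 10 myeloid genes described here are the regulators Spi1, Cebpa, Cebpe and Gfi1, the receptors and surface molecules Csf1r, Csf3r and Itgam, and the effector genes Mpo, Elane and Lyz2. They are 10 of the 21755 protein-coding genes of the mouse autosomes and X in GENCODE, and they were chosen by name. Each was read as a gene window, that is the gene body with 10 kb on either side in build GRCm38 (mm10). The question was whether B cells keep lower methylation than T cells at genes of the myeloid lineage.

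Whole genome oxidative bisulfite sequencing was used to read DNA methylation in resting CD43- B cells and naive CD4+ T cells from the spleens of C57BL/6J mice aged 6 to 8 weeks. C57BL/6J is an inbred strain, and the labels name no mutation and no treatment. The T cells had been freed of CD11b-positive cells, among others, and then sorted as CD4+, CD62L high, CD44 low and CD25-. The 8 samples form 4 groups of 2 (B cells of females, B cells of males, T cells of females, T cells of males), each sample pools cells of several mice, and both samples of a group share 1 file. Whether such a file holds 1 or both samples is not stated, so each group is 1 library with no replicate spread of its own. Bisulfite makes unmodified cytosine read as T. The oxidation that precedes it is meant to make 5-hydroxymethylcytosine read as T too, so that the share of C left at a CpG is 5-methylcytosine.

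The libraries held between 280919817 (male B cells) and 354634149 (female B cells) reads at CpGs. The median listed autosomal CpG had 14 to 17 reads. Over the autosomes and X, 80.4% and 81.2% of these reads were methylated in B cells of females and males, and 78.7% and 78.9% in their T cells. Mitochondrial CpGs, which serve as a background for unconverted cytosine, read as methylated at 0.271% and 0.727% in the B cell libraries and at 0.0733% and 0.0709% in the T cell libraries. The part of this gap in the differences below was not tested. The cell labels were checked at 20 marker genes. Promoters of 7 of 10 B cell marker genes were called lower in B cells, among them Ms4a1, which encodes CD20 (12.7% and 13.8% in B cells, 95.2% and 94.4% in T cells). Those of 9 of 10 T cell marker genes were called lower in T cells.

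B and T lymphocytes and myeloid cells all descend from haematopoietic stem cells through shared progenitors. PU.1, the product of Spi1, is an ETS-family transcription factor needed for myeloid cells and, at a lower level, for B cells, and it is switched off as T cells develop. Methylation of CpGs at promoters and enhancers is in general low where these elements are in use, while gene bodies are commonly highly methylated.

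Over whole windows the means of B and T cells lay within 5.10 points of each other at all 10 genes, and the differences ran both ways. The median over the 10 windows was 76.3% and 75.8% in the B cells of females and males, and 75.6% and 75.5% in the T cells. B minus T, the mean of the B cell libraries minus the mean of the T cell libraries in percentage points, was below 0 at 4 genes (Spi1, Csf1r, Elane, Lyz2) and above 0 at 6. None of the 10 was called lower in B cells and 1, Gfi1, was called higher, where a call asks for an adjusted p under 0.05 in the quasi-likelihood test of edgeR and a difference of at least 5 points. Of all 21611 windows tested, 0.514% were called lower in B cells and 16.5% higher. With no minimum difference 2 of the 10 passed as lower and 2 as higher, against 1.95% and 37.8% of all windows. The median difference was 1.31 points over the 10 genes and 1.75 points over all windows, and 18.1% of all windows lay below 0. The former moved with the window and the weighting. It was -0.86 over gene bodies without flanks, -0.33 without CpGs in other gene bodies, 0.51 with 20 kb on either side, 0.02 when every CpG counted the same and 0.81 to 1.33 when 1 library was left out.

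**Figure D1:**
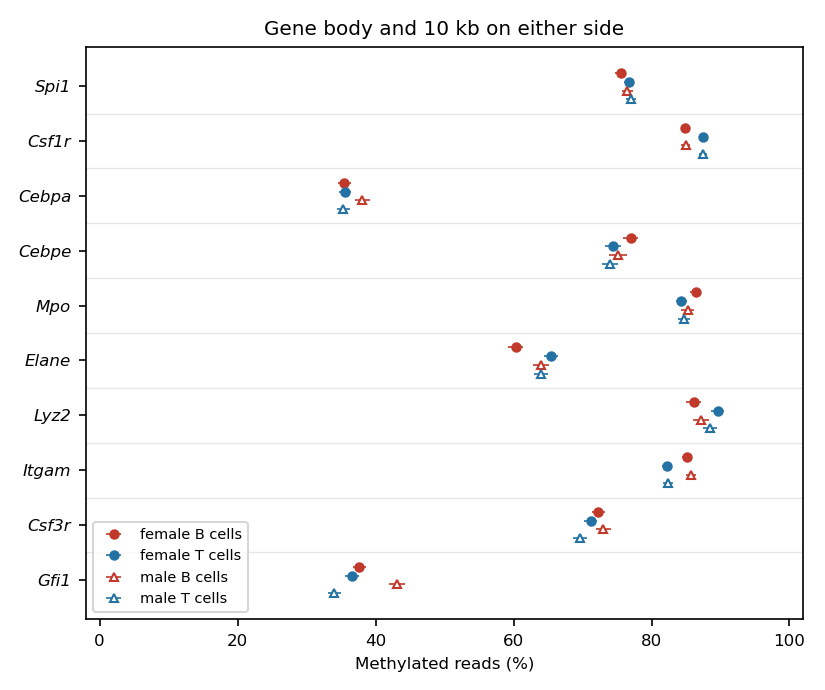
Methylated reads (%) over the window of each gene in the 4 libraries, with 95% Wilson intervals that cover counting error only (circles, female; triangles, male; red, B cells; blue, T cells). The windows of Cebpa and Gfi1 lie between 34.0% and 43.1%, those of the other 8 genes between 60.3% and 89.6%, and B and T cells of the same sex differ by at most 9.12 points (Gfi1, males).

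Among the regulators, Spi1 (chr2:91082390-91115756, plus strand) had 75.5% and 76.5% methylated reads in B cells, and 76.7% and 77.0% in the corresponding T cells, over 700 CpGs. The difference of -0.83 points had an adjusted p of 0.557. Within this window lay the difference of greatest size among all tiles of the 10 genes, described below. Cebpa (chr7:35119293-35121928) encodes C/EBPα, the factor that commits progenitors to the granulocyte and monocyte lineages. Its window read 35.4% and 38.1% in B cells, females before males here and below, and 35.6% and 35.3% in T cells, a difference of 1.29 points (adjusted p = 0.495). Cebpe (chr14:54710360-54712174), which encodes C/EBPε, a factor of late granulocyte maturation, read 77.0% and 75.1% in B cells and 74.5% and 74.0% in T cells, a difference of 1.81 points (adjusted p = 0.252). None of these 3 genes passed the test, and at Cebpa the B and T cell values overlapped.

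Gfi1 (chr5:107716657-107726036, minus strand) encodes a zinc finger repressor used in granulocyte and lymphocyte development. Its window read 37.7% and 43.1% in B cells, and 36.6% and 34.0% in T cells. Both B cell values lay above both T cell values, but most of the difference came from the male libraries (9.12 points, against 1.08 in females). The mean of 5.10 points was called (adjusted p = 0.00403). In fits without 1 library, which hold no sex term and leave 1 cell type with a lone library that is assumed to vary like the pair of the other, the call was lost on leaving out the T cells of females, where the difference was 6.37 points (adjusted p = 0.165), the B cells of males, where it was 2.35 (0.381), or the T cells of males, where it was 3.83 (0.373). The difference was 3.28 points when every CpG counted the same.

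Among the receptors, Csf1r (the receptor of macrophage colony-stimulating factor) lies at chr18:61100598-61132149. It read 84.9% and 85.0% in B cells, and 87.5% in both T cell libraries. Both B cell libraries were lower, by 2.63 points in females and 2.52 in males, with an adjusted p of 0.00196 but under the 5 points of a call. That p stayed under 0.05 when either B cell library was left out (0.0209 for females, 0.0296 for males), and rose to 0.148 and 0.124 when the T cells of females or of males were left out, at differences of -2.57 and -2.58 points. Itgam (chr7:128062640-128118491), which encodes the integrin subunit CD11b, read 85.1% and 85.7% in B cells, and 82.2% and 82.4% in T cells. B cells were higher by 3.11 points (adjusted p = 0.00135). Without the CpGs that also lie in other gene bodies, most of all in Gm49368, which overlaps Itgam along most of its length, the difference of Itgam was -0.11 points (adjusted p = 0.971). Csf3r (chr4:126024550-126044440), the receptor of granulocyte colony-stimulating factor, read 72.3% and 73.0% in B cells, and 71.2% and 69.6% in T cells, a difference of 2.25 points that did not pass (adjusted p = 0.152).

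The effector genes are used late in myeloid differentiation. Mpo (chr11:87793581-87804413), which encodes the myeloperoxidase of neutrophil granules, read 86.4% and 85.2% in B cells, and 84.3% and 84.7% in T cells (adjusted p = 0.210). Elane (chr10:79886247-79888215), which encodes neutrophil elastase, read 60.3% and 64.0% in B cells, and 65.4% and 63.9% in T cells (adjusted p = 0.159). B cells differed from T cells by -5.14 points in females but by 0.079 points in males, and the groups overlapped. Lyz2 (chr10:117277331-117282321), which encodes the lysozyme of macrophages and neutrophils, read 86.1% and 87.2% in B cells, and 89.6% and 88.5% in T cells, and its difference of -2.38 points passed the adjusted p (0.0193) without the size of a call. When 1 library was left out it was -1.86 and -1.83 points (without the B or T cells of females) and -2.90 and -2.93 (without those of males). Only sizes are given for these fits, so they do not show that the test still passed. Over the gene body of Lyz2 without flanks, 1 of several alternatives to the window, the difference was -5.50 points and was called (adjusted p = 0.0292). Of all gene bodies 1.20% were called lower in B cells and 17.9% higher.

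Sex made no called difference at any of the 10 windows, promoters or 343 tiles by edgeR or by limma. By edgeR 1.68% of all windows, 1.99% of all promoters and 0.0868% of all tiles were called. These shares include the X, while all 10 genes lie on autosomes. Within the 10 genes an unadjusted p under 0.05 was found by edgeR at 0 windows, 1 promoter and 26 tiles, and by limma at 0, 1 and 15. None of the 10 windows, 10 promoters or 343 tiles passed the test of whether B minus T differed between the sexes. Unadjusted, 1 window, 0 promoters and 8 tiles passed by edgeR and 1, 0 and 6 by limma. Over all regions 0.0185% of windows, 0.00% of promoters and 0.00862% of tiles passed that test after adjustment. The shares of all regions with an unadjusted p under 0.05 were not counted, so the unadjusted numbers have no background here.

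Promoters, taken as the kilobase before and the kilobase after the gene start, split the 10 genes into 3 levels. Cebpa and Gfi1, whose starts lie in long CpG-rich stretches, were unmethylated in all 4 libraries. Their 206 and 123 CpGs read 0.617% to 1.18% and 0.211% to 0.553%. Csf1r, Cebpe and Elane were highly methylated at the gene start in all 4 libraries, between 74.2% (Cebpe, male B cells) and 91.5% (Csf1r, female T cells). Spi1, Csf3r, Mpo, Lyz2 and Itgam lay between 18.3% and 73.6%. None of the 10 promoters was called in either direction by edgeR or limma, against 0.410% of 20501 promoters called lower in B cells and 0.956% called higher by edgeR. B minus T was below 0 at 6 of the 10, in both sexes at each, against 27.0% of all promoters. The median difference was -1.10 points over the 10 and 0.970 over all promoters, and this distance was not tested. Unadjusted, 3 of the 10 had a p under 0.05 by each tool, and the share of all promoters by that rule was not counted.

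Adjusted p-values under 0.05 without the 20 points of a promoter call were found at Lyz2 and Itgam, in opposite directions, against 2.20% of all promoters lower and 17.7% higher in B cells by that rule. The Lyz2 promoter read 48.4% and 47.2% in B cells, and 63.0% and 66.2% in T cells. Both B cell libraries were lower, by 16.8 points on average (adjusted p = 0.000934; 0.0662 by limma). The Itgam promoter read 72.4% and 73.6% in B cells, and 60.2% and 59.7% in T cells. Here both T cell libraries were lower, by 13.0 points (adjusted p = 0.00229; 0.0690 by limma). The Csf3r promoter read 36.1% and 40.2% in B and T cells of females and 46.7% and 49.7% in those of males. Neither the difference between the sexes (adjusted p = 0.163) nor that between the cell types (-3.53 points, adjusted p = 0.579) passed. The latter was -9.30 points with CpGs of at least 10 reads (adjusted p = 0.0486, under the size of a call) and -7.90 when every CpG counted the same. It turned to 1.76 points without the B cells of females and to 1.19 without the T cells of males. Without the T cells of females it was -8.25, and without the B cells of males -8.82.

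The annotated gene start of Spi1 is that of a longer transcript, 13.7 kb before the start of its principal transcript at chr2:91096096. The promoters were therefore also taken at principal starts, an alternative added after the data were seen. There Spi1 read 40.7% and 36.2% in B cells, and 67.8% and 64.4% in T cells. Both B cell values lay below both T cell values, by 27.6 points on average, and Spi1 was the one promoter of the 10 called lower in B cells (adjusted p = 4.56e-11; 0.0110 by limma), against 0.459% of 20480 promoters lower and 0.908% higher. In fits on 3 libraries the adjusted p was 0.0477 and 0.116 on leaving out the B cells of females or males, and 0.197 and 0.148 on leaving out their T cells, with differences of -25.4 to -29.9 points. The annotated gene start of Csf1r also lies before its principal start, which is at chr18:61105572. At this principal start Csf1r read 74.7% and 70.8% in B cells, and 72.9% and 65.4% in T cells. These levels were lower than at its gene start in all 4 libraries. The difference was 3.54 points (adjusted p = 0.550).

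**Figure D2:**
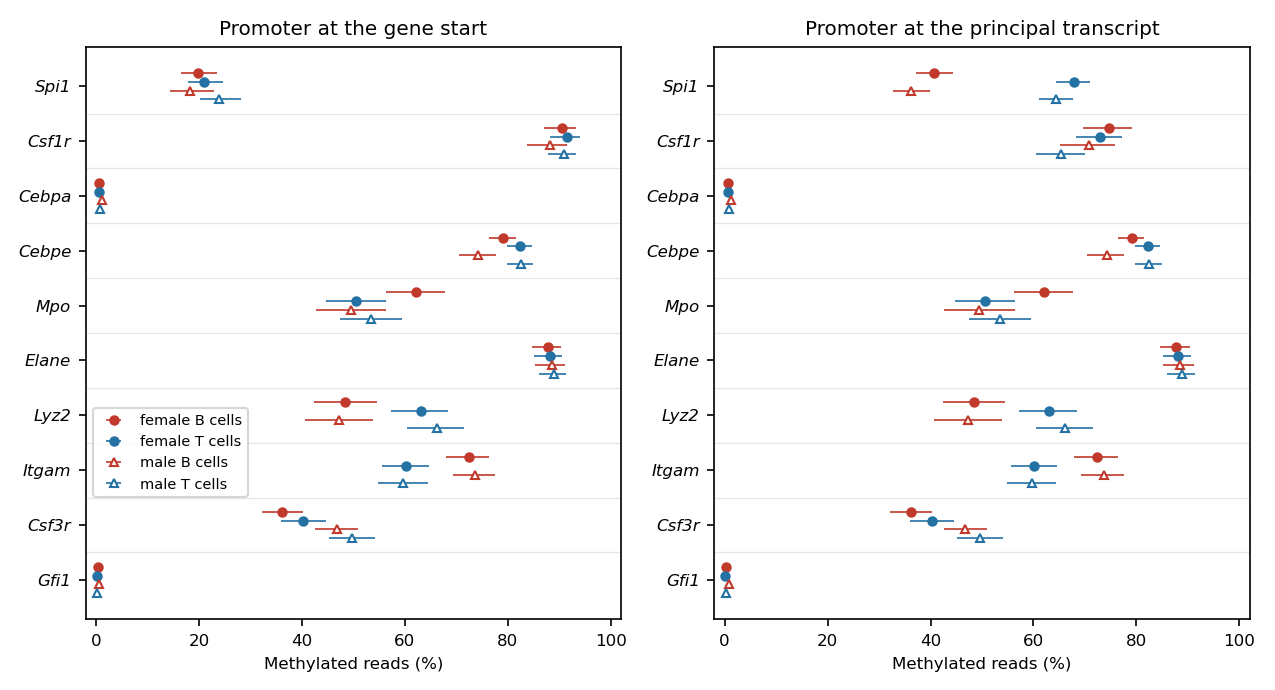
Methylated reads (%) in promoters of the 10 genes, reaching 1 kb up- and downstream of the gene start (left) or the principal transcript start (right), with 95% Wilson intervals for counting error (circles, female; triangles, male; red, B cells; blue, T cells). Spi1 lies at 18.3% to 24.0% in all libraries on the left and splits on the right, where B cells read 36.2% and 40.7% and T cells 64.4% and 67.8%.

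Differences between the cell types were concentrated in short stretches. Of 343 tiles of 1 kb in the 10 windows, 12 (3.50%) were called lower in B cells and 16 (4.66%) higher, with an adjusted p under 0.05 and at least 20 points. Of all 1530528 tiles, 0.812% were called lower in B cells and 2.36% higher. In the windows of all protein-coding genes the shares were 0.978% and 3.11%. Both shares of the 10 genes were above these, and the distance was not tested. Spi1, Itgam and Csf1r, which hold 160 of the 343 tiles, had 10 of the 12 lower tiles and 10 of the 16 higher ones. Lower tiles were found at 5 genes and higher tiles at 6, with both kinds at Spi1, Itgam and Gfi1. The sign was the same in both sexes at all 28 called tiles, 19 reached 20 points in both sexes and 19 were called whichever library was left out. With no minimum difference 34 tiles passed as lower and 44 as higher, against 2.19% and 7.16% of all tiles. By limma 9 tiles were lower and 13 higher, against 0.635% and 1.96% of all tiles. In 2-kb tiles 4 and 7 of 197 were called, against 0.473% and 1.71% of 1108428.

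**Figure D3:**
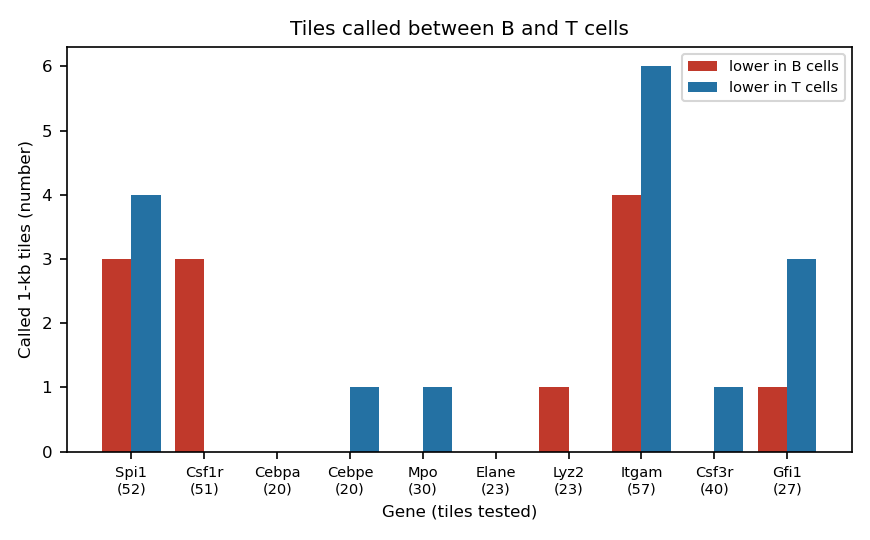
Number of 1-kb tiles called lower in B cells (red) and lower in T cells (blue) in the window of each gene, with the number of tiles tested in parentheses. Itgam has the most called tiles (4 and 6), Csf1r has 3 and 0, and Cebpa and Elane have none.

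Spi1 held 7 called tiles of 52, with B cells lower in 3 and T cells lower in 4. The difference of the greatest size in the 10 windows was at chr2:91088001-91089000, in an intron of the longer transcript, 7.6 kb before the principal start. This tile read 93.9% and 95.3% in B cells, but 6.70% (95% Wilson interval 4.03% to 10.9%) and 16.8% (11.8% to 23.3%) in T cells. The difference was 82.8 points (adjusted p = 1.51e-81). At chr2:91097001-91098000, in an intron 1.4 kb past the principal start, the order was the opposite. Here B cells read 3.28% and 8.40% and T cells 51.7% and 58.3%, a difference of -49.2 points (adjusted p = 7.52e-49). The tiles on both sides of it were also called lower in B cells. The third tile by size, chr2:91100001-91101000 in an intron, again had the T cells low, at 35.1% and 38.0% against 82.7% and 78.6% in B cells (44.1 points, adjusted p = 2.18e-21). All 7 called tiles of Spi1 were called whichever library was left out.

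The sequences below are the 300 bases with the most listed CpGs within the tile of largest difference and the tile of lowest B cell methylation at Spi1. They are read from GRCm38 on the strand of the gene, 5′ to 3′, and were picked after the values were seen, to show the CpGs whose state differed. Capitals mark CpGs. The first lies at chr2:91088445-91088744 and its 6 CpGs read 94.4% and 95.4% in B cells and 6.52% and 13.5% in T cells. The second lies at chr2:91097042-91097341 and its 10 CpGs read 0.510% and 2.73% in B cells and 52.8% and 59.5% in T cells.
Spi1, low in T cells: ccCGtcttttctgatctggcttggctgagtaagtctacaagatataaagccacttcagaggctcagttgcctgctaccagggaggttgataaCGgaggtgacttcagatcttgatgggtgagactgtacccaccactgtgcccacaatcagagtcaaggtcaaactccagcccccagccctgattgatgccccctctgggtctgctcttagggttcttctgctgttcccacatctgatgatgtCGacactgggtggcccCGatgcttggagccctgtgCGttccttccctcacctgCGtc
Spi1, low in B cells: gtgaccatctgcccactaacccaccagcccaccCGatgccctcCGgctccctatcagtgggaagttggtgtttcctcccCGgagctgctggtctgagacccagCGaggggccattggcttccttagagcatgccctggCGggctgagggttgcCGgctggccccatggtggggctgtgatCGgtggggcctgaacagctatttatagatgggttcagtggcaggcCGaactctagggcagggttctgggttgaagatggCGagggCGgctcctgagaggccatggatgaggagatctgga

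Stretches of at least 4 neighbouring CpGs at 30% or less showed the same layout without tiles. Spi1 had 5 such stretches in B cells (4483 bases) and 6 in T cells (3607 bases). Around 17.9, 15.4 and 13.8 kb before the principal start, and 5.4 kb after it, both cell types had one at the same place. A stretch of 36 CpGs and 1473 bases that began 0.384 kb after the principal start was low in B cells (2.84% and 4.89%, against 51.0% and 53.0% in T cells), and 25% of its CpGs were also low in T cells. A stretch of 19 CpGs and 1227 bases from 8.5 to 7.3 kb before the start was low in T cells (4.80% and 7.79%, against 57.3% and 71.2% in B cells), and 21.1% of its CpGs were also low in B cells. At the far end of the latter the first 4 CpGs read 17.6% and 15.4% in B cells and 4.82% and 2.00% in T cells. Over both stretches as a whole the cell types therefore took opposite order, while part of each was low in both.

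**Figure D4:**
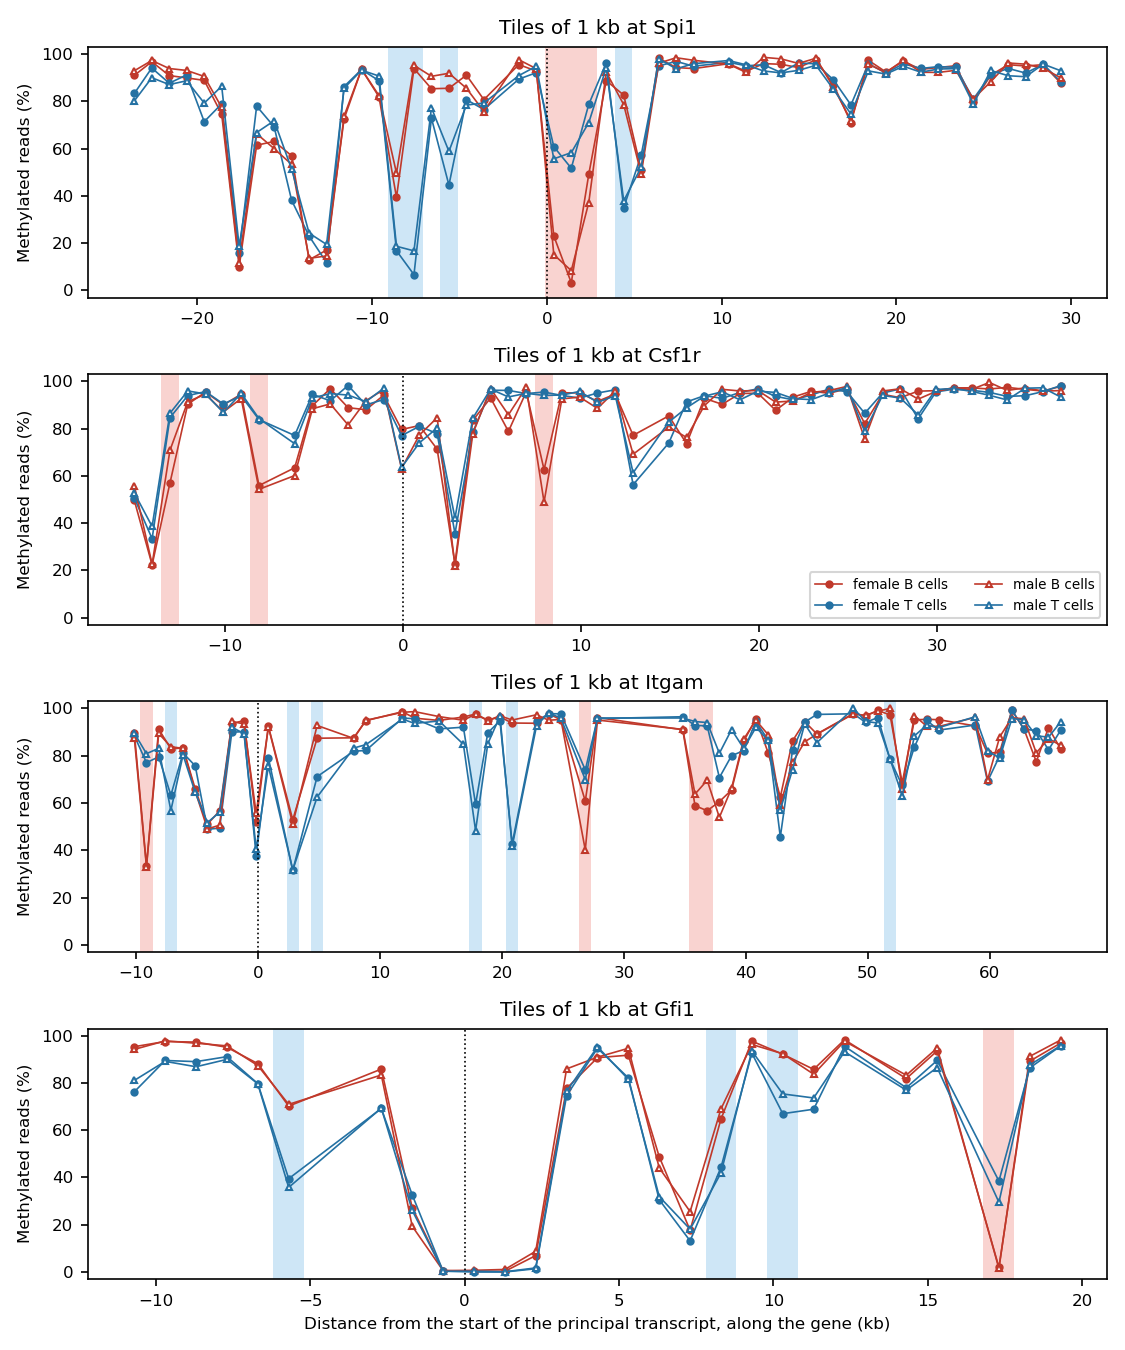
Methylated reads (%) in 1-kb tiles along the windows of Spi1, Csf1r, Itgam and Gfi1, by distance in kb from the start of the principal transcript (dotted line), in female (circles) and male (triangles) B cells (red) and T cells (blue). Red shading marks tiles called lower in B cells, blue shading those called lower in T cells. At Spi1 B cells drop to 3.28% just past the start and T cells to 6.70% at 7.6 kb before it.

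At Csf1r 3 of 51 tiles were called, all of them lower in B cells. In the intronic tile chr18:61113001-61114000, 7.9 kb past the principal start, B cells read 62.6% and 48.9% and T cells 95.4% and 94.0% (-39.0 points, adjusted p = 1.01e-27). In chr18:61097001-61098000, 8.1 kb before that start, they read 55.9% and 54.3% against 83.8% and 84.2% (-28.9 points, adjusted p = 0.000252; 0.0893 by limma). This tile rests on 6 CpGs and 57 to 74 reads per library. The third, chr18:61092001-61093000, lay in the upstream flank, with 56.9% and 70.8% against 84.6% and 86.5% (-21.7 points, adjusted p = 2.04e-09), and fell under 20 points when the B cells of females were left out (-14.8). A low B cell stretch of 4 CpGs over 244 bases, which begins just upstream of that tile and runs into it, read 4.03% and 0% in B cells and 77.5% and 73.5% in T cells. The 10 CpGs of a low stretch 3.1 to 3.4 kb past the principal start read 3.89% and 8.70% in B cells and 21.1% and 33.5% in T cells. Over the 119 CpGs of the upstream flank outside the promoter, B cells read 67.9% and 71.4% and T cells 76.7% and 76.8%. The difference was -7.05 points there, -3.37 over introns, -1.81 over the promoter, -0.71 over exons and 1.73 over the downstream flank.

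Itgam had the most called tiles, 4 lower in B cells and 6 lower in T cells of 57. In chr7:128083001-128084000, 20.8 kb past the principal start, B cells read 93.8% and 95.1% and T cells 42.8% and 41.6% (52.3 points, adjusted p = 5.52e-29). The tile chr7:128080001-128081000 showed the same order, at 97.6% and 97.6% against 59.5% and 48.3% (43.7 points, adjusted p = 3.28e-50). Both tiles overlap exons of Itgam and also lie in Gm49368. In chr7:128053001-128054000, 9.2 kb before the start, the B cells were the low ones, at 33.5% and 33.1% against 77.0% and 80.9% (-45.7 points, adjusted p = 5.16e-18). No B cell value overlapped a T cell value in these tiles. Of the other 7, the 3 lower in B cells ranged from -32.3 to -21.4 points and the 4 higher from 20.1 to 23.3. Among these 7, the call held whichever library was left out at 2, both lower in B cells. When every CpG counted the same, the weakest of the lower tiles fell from -21.4 to -7.73 points, while the others stayed at -33.7 and -32.3. The 4 higher tiles then differed by 19.6, 13.9, 19.6 and 21.9 points, in order along the gene, where a call asks for 20.

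The Itgam sequences are shown since CpGs of 1 gene, far apart along it, took opposite states. They were picked as for Spi1 and are on the plus strand. The first, at chr7:128083639-128083938, holds 6 CpGs. The second, at chr7:128053042-128053341, holds 5, which read 18.3% and 22.2% in B cells and 68.4% and 78.7% in T cells.
Itgam, low in T cells: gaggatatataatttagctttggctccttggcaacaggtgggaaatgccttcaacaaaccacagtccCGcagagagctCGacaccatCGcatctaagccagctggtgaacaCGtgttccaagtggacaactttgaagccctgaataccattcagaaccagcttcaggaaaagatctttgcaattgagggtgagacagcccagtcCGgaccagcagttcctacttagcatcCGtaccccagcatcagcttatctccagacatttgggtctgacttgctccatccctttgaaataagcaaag
Itgam, low in B cells: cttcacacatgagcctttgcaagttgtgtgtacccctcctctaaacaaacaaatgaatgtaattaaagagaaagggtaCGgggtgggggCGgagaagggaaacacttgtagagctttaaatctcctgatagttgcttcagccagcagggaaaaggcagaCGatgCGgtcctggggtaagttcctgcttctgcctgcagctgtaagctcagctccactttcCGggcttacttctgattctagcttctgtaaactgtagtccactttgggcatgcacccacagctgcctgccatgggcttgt

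Gfi1 had 1 called tile lower in B cells and 3 lower in T cells, of 27. The strongest, chr5:107731001-107732000, lies 5.7 kb before the principal start. It read 70.2% and 70.9% in B cells and 39.5% and 35.8% in T cells (32.9 points, adjusted p = 9.25e-08). The lower one, chr5:107708001-107709000, lies downstream of the gene and read 1.97% and 1.52% in B cells and 38.5% and 29.5% in T cells (-32.2 points, adjusted p = 4.55e-15). In the exonic tile chr5:107717001-107718000 the T cells were lower, at 44.3% and 41.9% against 64.7% and 69.0% (23.8 points, adjusted p = 2.01e-07). Around the start, about 4.1 kb were unmethylated in both cell types (4113 bases in B cells and 4062 in T cells). Only 3 of the 27 tiles of Gfi1 were below 0, and their median difference was 6.15 points, against 0.27 over all 343 tiles.

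The 300 bases of the tile low in B cells, chr5:107708086-107708385 on the minus strand, hold 8 CpGs. The 5 sequences printed for Spi1, Itgam and Gfi1 were searched on both strands for 4 motifs. GAGGAAGT, a form of the site bound by ETS factors such as PU.1, was found only in that of Gfi1, on the opposite strand. TGTGGT, bound by RUNX factors, was found once in the first Itgam sequence, and CAGCTG, an E-box, once in the first and 2 times in the second. TTGCGCAA, a C/EBP site, was in none of them. Of 1497668 stretches of 300 bases at the centres of autosomal tiles, 1.88% hold GAGGAAGT, 21.0% TGTGGT, 12.6% CAGCTG and 0.0329% TTGCGCAA.
Gfi1, low in B cells: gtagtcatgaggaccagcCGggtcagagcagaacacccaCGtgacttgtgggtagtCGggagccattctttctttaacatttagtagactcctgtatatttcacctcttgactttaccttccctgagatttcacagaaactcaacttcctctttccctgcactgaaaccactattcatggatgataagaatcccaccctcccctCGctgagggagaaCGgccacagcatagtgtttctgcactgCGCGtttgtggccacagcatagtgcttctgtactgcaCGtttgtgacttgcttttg

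The remaining genes held few called tiles. Lyz2 had 1 of 23, chr10:117281001-117282000 with its middle 0.82 kb past the start, lower in B cells (64.8% and 59.0% in B cells, 77.9% and 87.7% in T cells; -20.9 points, adjusted p = 2.36e-05; 0.0822 by limma). That call was lost when either male library was left out (-18.0 points without the B cells, -16.0 without the T cells). Cebpe had 1 of 20, downstream at chr14:54705001-54706000 and lower in T cells (75.8% and 78.8% in B cells, 52.8% and 53.9% in T cells; 23.9 points, adjusted p = 1.96e-06). Its difference was 10.0 points, under the size of a call, when every CpG counted the same. Mpo had 1 of 30, upstream at chr11:87788001-87789000 and also lower in T cells (94.7% and 90.7% in B cells, 67.8% and 73.9% in T cells; 21.8 points, adjusted p = 1.66e-07). It fell under 20 points when either female library was left out (19.9 without the B cells, 18.8 without the T cells). Csf3r had 1 of 40, chr4:126053001-126054000, which lies in the neighbouring Mrps15 (86.3% and 78.8% in B cells, 55.4% and 48.4% in T cells; 30.7 points, adjusted p = 4.15e-09).

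No tile was called at Cebpa and Elane. At Cebpa the difference of greatest size was -9.03 points in chr7:35121001-35122000 (77.7% and 80.3% in B cells, 87.9% and 88.2% in T cells; adjusted p = 0.0690). A stretch of 279 CpGs and 3031 bases over the Cebpa start lay at 0.988% to 1.68% in all libraries. At Elane it was 12.1 points in chr10:79878001-79879000, which lies in Prtn3, the gene of another granule protease (38.9% and 40.0% in B cells, 25.6% and 29.1% in T cells; adjusted p = 0.0296, under 20 points). Elane therefore had neither a low promoter nor a called tile, and its promoter read 87.8% to 89.0% in all libraries.

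Counted by single CpGs, with at least 10 reads in every library and at least 30 points in both sexes, 63 of 3682 CpGs of the 10 windows (1.71%) were lower in B cells and 80 (2.17%) higher. In the windows of all protein-coding genes the shares were 0.714% and 1.65%. At 20 points they were 3.15% and 3.42% in the 10 windows, against 1.25% and 2.69%. Spi1 held 26 of the lower and 20 of the higher CpGs among its 539. Csf1r held 15 lower and 1 higher of 523, and Itgam 8 lower and 30 higher of 424. Low stretches covered 21287 bases in B cells (32 stretches) and 18795 bases in T cells (28 stretches) over the 10 windows. That order turned at a limit of 50%, where they covered 26248 bases in B cells (40 stretches) and 27545 in T cells (45 stretches). Stretches were not counted over other genes, so these totals have no background here. Of the called tiles, 3 of 12 lower and 6 of 16 higher lay in the body of another protein-coding gene. All of these but the Csf3r tile in Mrps15 lie within Itgam itself, where Gm49368 overlaps it.

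Windows of 44 other myeloid genes also differed in both directions. Of these, 3 were called lower in B cells and 5 higher, against 0.514% and 16.5% of all windows, with a median difference of 0.57 points and 15 below 0. The 18 granule and phagocyte genes had 1 lower window, Ncf4, a subunit of the phagocyte oxidase (78.3% and 79.2% in B cells, against 84.2% and 83.5%), and none higher. Of the 15 receptors and adaptors none was lower and 3 were higher: Itgb2, the partner of CD11b (17.0 points), Tyrobp (5.99) and Fcgr1 (5.79). The 11 regulators and kinases had 2 lower, among them Irf8 (-15.6), and 2 higher, Runx1 (12.2) and Egr2 (5.31). When every CpG counted the same, Ncf4 (-4.03), Tyrobp (4.79), Fcgr1 (2.89) and Egr2 (1.68) fell under 5 points. Itgb2 (17.8), Irf8 (-14.2) and Runx1 (10.5) did not. Irf8 is a factor of monocytes and also of B cells, and Runx1 and Itgb2 are used in T cells too. At promoters, where 0.410% of all were lower and 0.956% higher, 3 of the 44 were lower in B cells, Ncf4 (-22.8), the scavenger receptor gene Marco (-21.6) and Csf2rb (-20.2). The chemokine receptor gene Ccr2 was the 1 called higher (42.9). Each of the 3 fell under 20 points when 1 library was left out (Ncf4 -19.5 without male T cells, Marco -18.6 without male B cells, Csf2rb -17.9 without female T cells). Ccr2 stayed at 40.1 points or more, a size that does not show that the test still passed. Its promoter rests on 9 CpGs and 109 to 131 reads per library. It differed by 34.7 points when every CpG counted the same. At principal starts 3 were lower and 2 higher, against 0.459% and 0.908% of all, the added one being Fcgr3 (36.4). The 12 erythroid genes, of another lineage, had 1 lower window (Hbb-bs, -5.42) and none higher, with a median of 0.82 points. The 12 natural killer and platelet genes had 1 lower (Klrb1c, -5.76) and 2 higher (Gp1ba, 10.0; Prf1, 5.60), with a median of 1.74 points, and 1 higher promoter (Nkg7, 21.9). The B cell marker genes had 5 of 10 windows lower, with a median of -4.01 points, and all 10 T cell marker windows were higher, with a median of 26.4 points.

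**Figure D5:**
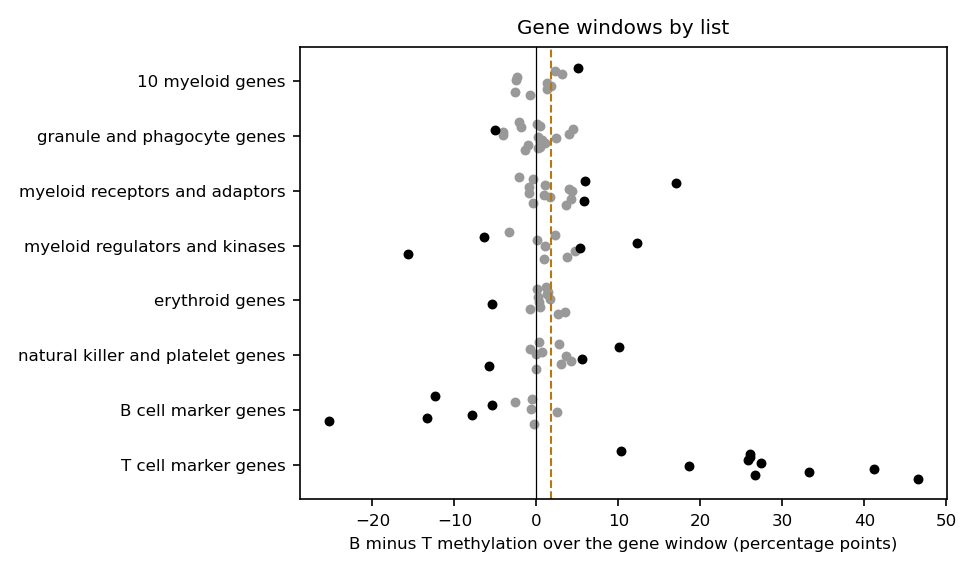
B minus T methylation (percentage points) over the gene window for each gene of 8 lists, one point per gene (black, called; grey, not called; solid line, 0; dashed line, the median of all windows, 1.75). The 10 myeloid genes lie between -2.57 and 5.10 points, while T cell marker genes lie between 10.3 and 46.5.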

How the data were processed

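Per the labels, the files came from oxidative bisulfite libraries. The submitters' processing notes name mm10, Trim Galore, FastQC and Bismark 0.13.1. The authors deposited for each CpG the methylation level as a fraction and the read count, with at least 5 reads; the level, rounded by the authors to 3 decimals, gave back whole methylated reads for 100% of CpGs. Removal of duplicate reads is not given in the sources used here. All 20645953 positions on the autosomes and X matched a CG of GRCm38.

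Reads were summed over the 18684786 CpGs listed in all 4 libraries, in gene windows, promoters and 1-kb tiles (GENCODE M21) with at least 5 CpGs and 20 reads per library. edgeR 4.0.16 in R 4.3.3 fitted methylated and unmethylated counts with a term per library, methylation, cell type and sex. This leaves 1 residual degree of freedom. The spread was therefore shared over all regions, largely for windows (prior degrees of freedom 74.7) and wholly for promoters and tiles (infinite). The common dispersions were 0.00164, 0.0109 and 0.00626. P-values were adjusted over every tested region of the same kind (Benjamini-Hochberg). The p-values set a difference against the shared spread between these 4 libraries, which may be technical. For promoters and tiles they do not measure the spread at the region itself. Sex was tested by its own term in the same fit. To test whether B minus T differed between the sexes, a crossed term (female B and male T against female T and male B) replaced the sex term. limma 3.58.1 (log2 ratio of methylated to unmethylated reads, 0.5 added) was an alternative, as were the settings in the closing section. The edgeR test of B minus T was run on simulated data for windows, promoters and a sample of tiles. The sex test, the crossed test, limma and the fits without 1 library were not simulated. Wilson intervals (95%) cover counting error only. They treat every CpG of a read as independent, so they are too narrow where a read spans several CpGs. The reads carry no molecular identifiers.

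The members and lists were chosen with earlier results of these data known. All 10 genes are named, with up to 3 called tiles each by size, or the largest tile where none was called, and up to 4 called windows and 3 called promoters per other list. Of the 300-base sequences, the centre of the tile was replaced by its CpG-richest part. RefSeq promoter sequences were matched for 7 of the 10 genes and none is printed. Every column of per-sample values was used. 1 gene of the lists is counted but not reported by name here.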

Additional observations from a re-analysis of the deposited data

How the results depend on the processing

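Each comparison rests on 4 libraries, and regions under 20 reads in any of them were not tested. Gfi1 was the 1 window called higher in B cells, and that count fell to 0 with CpGs of at least 10 reads (4.73 points), a minimum of 10 points, subtraction of the median of all windows (3.35), an unweighted mean of CpGs (3.28) and gene bodies alone (3.56). It also fell to 0 without CpGs of other gene bodies, where the difference stayed at 5.10 points and the adjusted p rose to 0.0552. With no minimum difference 2 windows were lower and 2 higher, 1 promoter lower and 1 higher, and 34 tiles lower and 44 higher. Gene bodies alone gave 1 lower window (Lyz2), against 1.20% of all, and the principal start, added after seeing the data, 1 lower promoter (Spi1). In 2-kb tiles 4 of 197 were lower and 7 higher, against 0.473% and 1.71% of all. The median over the 10 windows changed sign to -0.86 over gene bodies and -0.33 without other gene bodies. Subtraction of the median of all regions shifts every region alike, and by that shift it puts the medians at -0.45 (windows) and -0.52 (tiles). The median over promoters, -1.10 points, lay between -1.26 and 0.13 points when 1 library was left out. At principal starts it was -0.11. The cause of the other changes was not tested.

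Over all genes, 3675 windows (111 lower in B cells) were called, against 8595 (421 lower) with no minimum, 623 (20 lower) at 10 points, 2057 (268 lower) after subtraction and 1713 with unweighted means. Lower windows numbered 254 over gene bodies, 67 with 20 kb on either side and 182 without other gene bodies. For promoters 280 (84 lower) became 4078 (451 lower) with no minimum. For tiles 48497 (12433 lower) became 143037 (33515 lower) with no minimum and 24206 (5245 lower) at 2 kb. Fits on 3 libraries called 1531 to 4812 windows (66 to 148 lower) and 35 to 162 promoters (5 to 42 lower), with 0 to 1 of the 10 windows higher. The Gfi1 call was lost in 3 of these fits. At 20 points in both sexes 3.15% of CpGs were lower and 3.42% higher, against 1.25% and 2.69% of those in all protein-coding windows, and at a level of 50% B cells had 40 low stretches (26248 bases) and T cells 45 (27545 bases), which turns the order at 30%. No paired analysis was possible because the groups share no replicate number. Called tiles left with too few CpGs at a limit of 10 reads per CpG gave no value for that setting. They count as neither lost nor kept. Of the 272 alternative values of the called tiles that remained, 30 lost their call, and none changed sign. Part of this was fixed in advance. The settings limma, no minimum difference and no filter on regions reuse the difference of the main fit, so its sign could not change. Subtraction of the median shifts every tile alike, by far less than the 20 points of a call. With no minimum difference a call could not be lost either. The sign was tested only where the difference was recalculated, as with unweighted means and fits on 3 libraries.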
